A study of Mus musculus with 8 samples.

Results

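A set of 10 genes of the Notch pathway were followed in cultured mouse spermatogonial stem cells: Dtx1, the receptors Notch1, Notch2 and Notch3, the ligands Jag1, Jag2 and Dll1, the nuclear factor gene Rbpj and the target genes Hes1 and Hey1. These 10 genes, of 31010 in the expression table, were chosen by the values of Dtx1 in the same libraries, because its level leaned higher in lines of ICSI-derived mice in each of the 2 sets of lines described next. The Dtx1 difference between ICSI and control is therefore a description with no test. Of the 10 genes, 8 had a mean of at least 1 FPKM (fragments per kilobase of exon, scaled to library size) and were among the 12000 genes tested. Notch3 and Dll1 fell under that minimum and were left out of the fit. They are given as values, with an exact permutation test between ICSI and control that had not been planned for them.

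Germline stem (GS) cells are spermatogonia that self-renew in culture with GDNF and FGF2 and keep stem cell activity. RNA-seq was made from 8 GS cell lines labelled B6 and WT (wild type), all derived from CD9-selected spermatogonia of mature testes. The control-F1 lines 29, 37, 44 and 45 came from mice born after natural mating, and the ICSI-F1 lines 11, 17, 20 and 21 from mice born after intracytoplasmic sperm injection (ICSI). The study calls the injected sperm wild-type, while its methods name untreated mice with a ubiquitous Egfp transgene as a source of sperm, so the ICSI mice could carry that transgene. The comparison asks whether GS cells of ICSI-derived mice express genes at other levels. The sample titles are written in 2 ways, called label forms here: form 1 holds lines 29 and 37 of the controls with lines 11 and 17 of ICSI, and form 2 holds lines 44 and 45 of the controls with lines 20 and 21 of ICSI. Other versions of the processing tools are listed for each form. The study numbers its F1 mice and the lines carry numbers from that series, so each line stands for a mouse of its own. Litters are not given, and the p-values measure the spread between such lines. For ICSI against control, the main fit and the exact test do not account for the label form. Their spread therefore also contains any shift between the forms.

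Notch receptors are cut by ADAM proteases and then by gamma-secretase once a Jagged or Delta-like ligand on a neighbouring cell binds them. The freed intracellular part joins the DNA-binding protein RBPJ and co-activators of the Mastermind family to switch on targets, of which the Hes and Hey repressors are the best known. Deltex proteins are ubiquitin ligases that bind the intracellular part of Notch and act on its traffic and turnover. In the seminiferous tubule, JAG1 on germ cells is known to engage Notch in Sertoli cells, where the pathway lowers the expression of the stem cell factor GDNF.

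RefSeq promoter windows on GRCm38.p6, taken here as the 250 bases before a transcript start, were at hand for 8 of the 10 genes, in 10 windows. They were searched on both strands for the RBPJ core (TGGGAA) and for the GC box (GGGCGG). The 2 receptor genes that differed between label forms, in opposite directions, each held 5 GC boxes, as did Jag2, which did not pass that test, and Notch3 held 4. For Rbpj, 1 window, of the gene of the DNA-binding factor itself, held the RBPJ core outside an exon. The stretches of these windows that lie outside annotated exons are given 5′ to 3′ along the gene's own strand, with the motifs in capitals. Their positions are chr2:26503825-26504072 on the minus strand for Notch1, chr3:98013288-98013526 on the plus strand for Notch2 and chr5:53590096-53590213 on the plus strand for Rbpj.
Notch1: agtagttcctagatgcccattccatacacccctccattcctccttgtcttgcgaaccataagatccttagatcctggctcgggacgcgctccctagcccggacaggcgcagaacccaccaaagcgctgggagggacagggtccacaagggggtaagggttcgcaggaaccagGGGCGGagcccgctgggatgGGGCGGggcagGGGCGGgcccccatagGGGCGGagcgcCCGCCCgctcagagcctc
Notch2: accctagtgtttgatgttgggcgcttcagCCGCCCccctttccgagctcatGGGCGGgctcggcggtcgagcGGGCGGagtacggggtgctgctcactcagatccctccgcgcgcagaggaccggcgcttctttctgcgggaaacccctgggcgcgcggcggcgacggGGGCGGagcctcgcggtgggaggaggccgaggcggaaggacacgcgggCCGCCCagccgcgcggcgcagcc
Rbpj: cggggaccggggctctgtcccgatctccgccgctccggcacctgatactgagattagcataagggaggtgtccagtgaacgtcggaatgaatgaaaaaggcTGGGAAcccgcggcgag
The GC box was found in 5 of the 10 windows and in 32.7% of the 32851 windows of all genes. The RBPJ core was found in 2 of the 10, both of them Rbpj windows that overlap each other, and in 21.6% of all windows. The window of Dtx1, which lies wholly in an annotated exon, held 3 GC boxes and no RBPJ core. A match is only a match of letters.

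The lines carried RNA of germ cells, with markers of undifferentiated spermatogonia. All 13 markers on that list, Ddx4, Dazl and Zbtb16 among them, were above 1 FPKM in every line. Their summed level was 733 to 1220 FPKM, with Dazl and Ddx4, genes of germ cells in general, as the largest terms. No list of differentiation markers was set beside them. All 11 fibroblast markers were also above 1 FPKM in every line, with sums of 175 to 698 FPKM. Embryonic fibroblasts were the feeder layer of these cultures, and the methods describe their removal on gelatin for the RT-PCR samples. Sertoli cells, the main Notch-receiving cells of the tubule, were represented by 9 markers with a summed level of 5.64 to 9.62 FPKM. Only Sox9, Rhox5 and Wt1 of these had a mean above 1 FPKM, and Amh and Fshr were at or near 0. In bulk RNA, fewer cells of a type and less RNA per cell cannot be told apart. Whole reads could be recovered from the FPKM steps of 98.3% of the genes tested, to within 0.02 reads, and summed to 24222172 to 26111675 per line in form 1 and 31788991 to 43418179 in form 2.

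By mean FPKM over the 8 lines, the 10 genes were ordered Hes1 (35.5), Notch2 (11.8), Jag1 (9.01), Notch1 (8.87), Jag2 (7.39), Rbpj (4.18), Hey1 (4.15), Dtx1 (2.75), Notch3 (0.887) and Dll1 (0.247). FPKM is a level per length of exon and so allows genes to be compared roughly. The length covers all annotated exons of a gene, such as 12750 bases for Rbpj and 3265 for Hey1, whichever transcripts are expressed. The range of Hes1 over the lines lay above that of every other gene. All the other neighbours in this order had overlapping ranges, although Dtx1 was above Notch3 and Notch3 above Dll1 within each of the 8 lines. Rbpj was the steadiest, with a coefficient of variation of 4.35% over the lines, and Jag1 (55.4%), Dll1 (51.8%) and Dtx1 (49.4%) were the most variable.

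**Figure D1:**
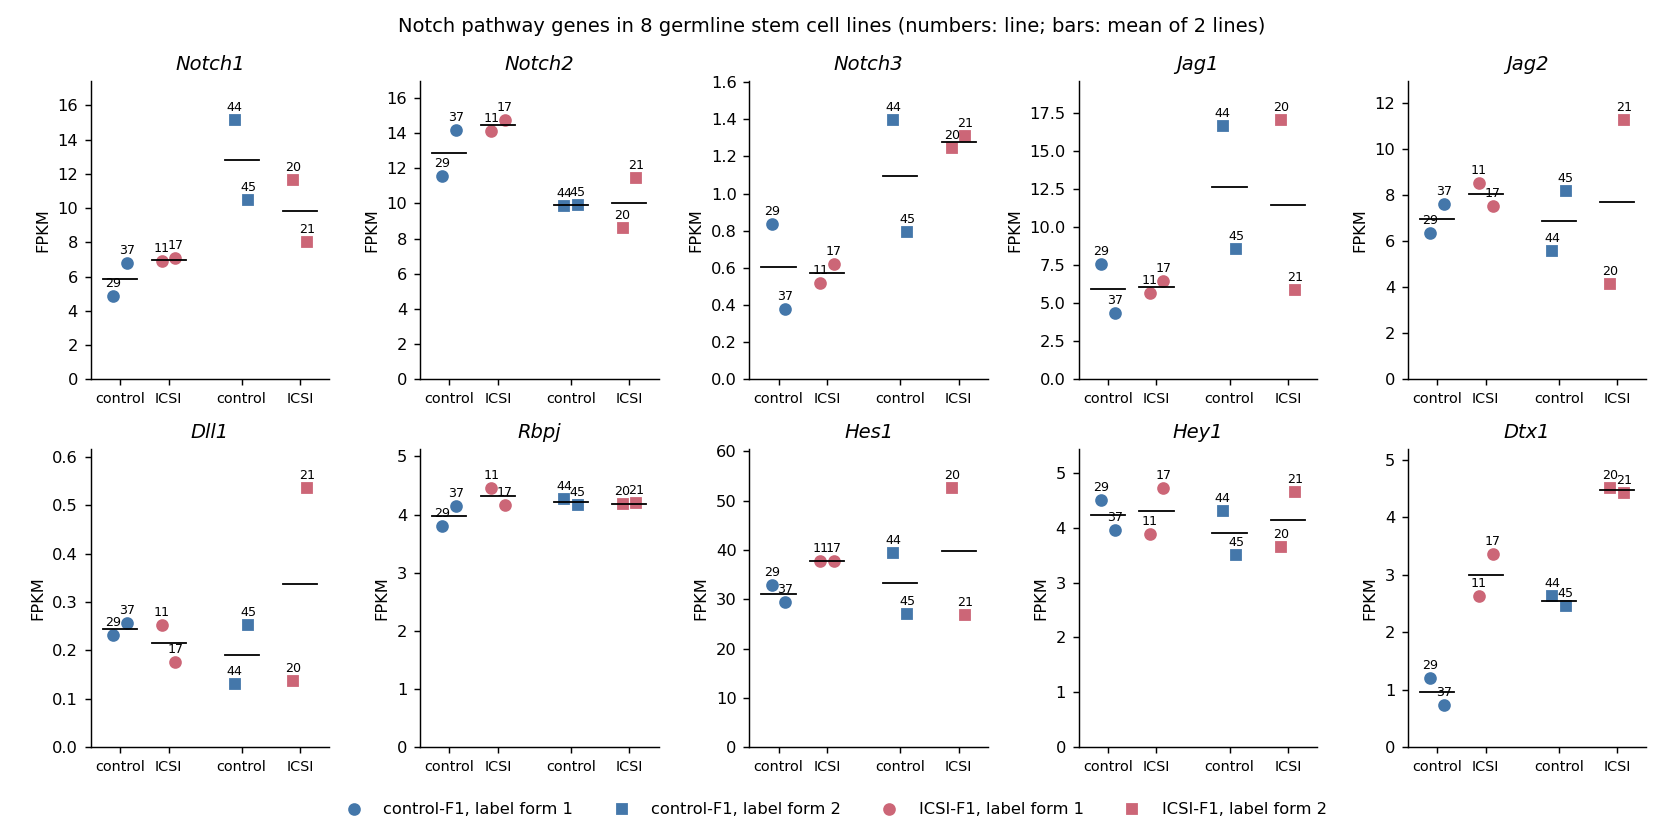
Level of each of the 10 genes in FPKM (vertical axes, each from 0) in the 8 lines, arranged as control and ICSI within label form 1 (circles) and form 2 (squares). Numbers name the lines and bars are means of 2 lines. The ICSI lines of Dtx1 lie above the controls in both forms, and Notch1 is higher and Notch2 lower in every form 2 line than in every form 1 line.

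Dtx1 (ENSMUSG00000029603) lies on chromosome 5 from 120680202 to 120711927 (GRCm38). In form 1, its level was 1.20 FPKM in control line 29, 0.730 in control line 37, 2.64 in ICSI line 11 and 3.37 in ICSI line 17. In form 2, it was 2.62 FPKM in control line 44, 2.46 in control line 45, 4.52 in ICSI line 20 and 4.42 in ICSI line 21. Each ICSI line was above each control line, but ICSI line 11 and control line 44 were almost level, with 366 and 453 reads.

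The mean was 1.76 ± 0.933 FPKM in control lines (SD, n = 4) and 3.74 ± 0.898 in ICSI lines, a ratio of 2.13. On the log2(FPKM + 1) scale, on which differences are given unless another setting is named, ICSI exceeded control by 0.83 ± 0.26 (SE). Within form 1 the means were 0.967 and 3.0 FPKM, a ratio of 3.11, and within form 2 they were 2.54 and 4.47, a ratio of 1.76. These values chose the gene, so nothing further is drawn from them. Among all 12000 genes tested, 25 (0.208%) had every ICSI line above every control line. Both ICSI lines were above both control lines in each form for 108 genes (0.900%). An ICSI difference as large as that of Dtx1 or larger was found for 4 (0.0333%).

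Dtx1 was also higher in form 2, at 3.51 ± 1.11 FPKM against 1.99 ± 1.23 in form 1 (SD, n = 4). The difference was 0.66 ± 0.14 (SE) with the group as a covariate. It is given without a test. The fit takes out the ICSI difference, whose direction in both forms chose the gene, and this narrows the error. The control lines of form 2, at 2.46 and 2.62 FPKM, came close to ICSI line 11 of form 1, at 2.64. The summed level of each cell type marker list overlapped between ICSI and control lines. Within each form, both ICSI lines had lower Sertoli sums than both control lines. They were at 6.10 and 5.64 against 6.15 and 6.27 FPKM in form 1 and at 6.30 and 5.69 against 9.62 and 6.44 in form 2. The single markers went both ways. In form 1, Wt1 was lower in ICSI lines (3.09 and 2.18 against 3.15 and 3.31 FPKM) and Gata4 higher (0.711 and 0.818 against 0.435 and 0.524). In form 2, Rhox5 was lower (0.771 and 1.00 against 1.62 and 2.67) and Wt1 higher (1.21 and 1.63 against 1.15 and 0.929). How often such an ordering arises was not counted, and the part of Sertoli RNA in the Dtx1 level was not tested. The fibroblast sums were 175 to 698 FPKM in control and 228 to 397 in ICSI lines. The sum of 5 endothelial markers was lower in the control than in the ICSI lines of form 1 (2.60 and 3.48 against 4.54 and 5.81 FPKM) and higher in form 2 (9.28 and 8.79 against 5.84 and 6.03).

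Among the receptors, Notch1 and Notch2 differed between label forms in opposite directions and neither passed the test between ICSI and control. Notch1 (ENSMUSG00000026923, chromosome 2, 26457903 to 26516663) was at 4.87 and 6.81 FPKM in control lines 29 and 37 and at 6.91 and 7.09 in ICSI lines 11 and 17. In form 2, it was at 15.2 and 10.5 FPKM in control lines 44 and 45 and at 11.6 and 8.0 in ICSI lines 20 and 21. Every form 2 line was above every form 1 line, at means of 11.3 ± 2.97 and 6.42 ± 1.04 FPKM (SD, n = 4). The difference was 0.71 ± 0.19 (SE, limma adjusted p = 0.0372). ICSI and control lines overlapped, at 8.40 ± 2.20 and 9.33 ± 4.53 FPKM (exact permutation p = 0.971, two-sided). Exons of Notch1 overlap 2 genes on the opposite strand, and whether the counting used strand is uncertain.

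Notch2 (ENSMUSG00000027878, chromosome 3, 98013527 to 98150361) was at 11.6 and 14.2 FPKM in control lines 29 and 37 and at 14.1 and 14.7 in ICSI lines 11 and 17. In form 2, it was at 9.86 and 9.89 FPKM in control lines 44 and 45 and at 8.59 and 11.5 in ICSI lines 20 and 21. Here every form 2 line was below every form 1 line, although ICSI line 21 and control line 29 were only just apart. The mean was 9.95 ± 1.18 FPKM in form 2 and 13.7 ± 1.42 in form 1 (SD, n = 4), a difference of −0.42 ± 0.11 (SE, limma adjusted p = 0.0377). ICSI and control lines overlapped, at 12.2 ± 2.81 and 11.4 ± 2.04 FPKM (exact permutation p = 0.686). An exon of Notch2 overlaps the gene Gm42820 on the same strand, and reads there cannot be assigned to either.

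Notch3 (ENSMUSG00000038146, chromosome 17, 32120820 to 32166852), a receptor best known from vascular smooth muscle, was low, with 76 to 370 reads. It was at 0.836 and 0.377 FPKM in control lines 29 and 37 and at 0.517 and 0.623 in ICSI lines 11 and 17. In form 2, it was at 1.40 and 0.793 FPKM in control lines 44 and 45 and at 1.25 and 1.31 in ICSI lines 20 and 21. The forms overlapped only through control lines 29 and 45. ICSI and control lines overlapped fully (exact permutation p = 0.857). Exons of Notch3 overlap a gene on the opposite strand, Gm17276.

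Of the ligands, Jag1 had the highest mean and the widest relative spread, although its median of 7.01 FPKM was below the 7.57 of Jag2, and Jag2 was the higher of the 2 in control line 37 and ICSI lines 11, 17 and 21. Jag1 (ENSMUSG00000027276, chromosome 2, 137081456 to 137116644) was at 7.57 and 4.35 FPKM in control lines 29 and 37 and at 5.65 and 6.44 in ICSI lines 11 and 17. In form 2, it was at 16.6 and 8.55 FPKM in control lines 44 and 45 and at 17.0 and 5.87 in ICSI lines 20 and 21. Control line 44 and ICSI line 20 stood at over 16 FPKM and the other 6 lines under 9. The means of 12.0 ± 5.66 FPKM in form 2 and 6.00 ± 1.36 in form 1 (SD, n = 4) did not pass the test (0.80 ± 0.32 SE, limma adjusted p = 0.112). They did without ICSI line 21 (1.11, limma adjusted p = 0.0215). The 2 high lines also had the highest summed fibroblast markers of form 2, at 610 and 397 FPKM against 175 in control line 45 and 263 in ICSI line 21. In form 1, control line 29 had the highest sum of all, 698 FPKM, with Jag1 at 7.57. The part of fibroblast RNA in the Jag1 level was not tested.

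Jag2 (ENSMUSG00000002799, chromosome 12, 112907819 to 112929776) ran from 5.58 to 8.17 FPKM in control lines and from 4.12 to 11.3 in ICSI lines. The lowest and the highest value both belonged to form 2, in ICSI lines 20 and 21. Neither the ICSI difference (0.10 ± 0.25 SE, exact permutation p = 0.743) nor the form difference (−0.11 ± 0.25 SE, limma adjusted p = 0.780) exceeded the spread between lines. Dll1 (ENSMUSG00000014773, chromosome 17, 15367354 to 15376872), a Delta-like ligand, was the lowest of the 10 genes, with 18 to 78 reads. It lay between 0.130 and 0.257 FPKM in 7 lines and at 0.536 in ICSI line 21 (ICSI against control, exact permutation p = 0.714). It overlaps an antisense gene, A930024N18Rik.

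Rbpj (ENSMUSG00000039191, chromosome 5, 53466152 to 53657362), through which the pathway reaches DNA, was nearly level over the lines. It was at 3.80 FPKM in control line 29, at 4.46 in ICSI line 11 and between 4.16 and 4.27 in the other 6 lines. The means were 4.10 ± 0.205 FPKM in control and 4.25 ± 0.140 in ICSI lines (SD, n = 4, exact permutation p = 0.343). The form difference was 0.02 ± 0.09 (SE, limma adjusted p = 0.909).

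The target genes did not differ beyond the spread between lines in either comparison. Hes1 (ENSMUSG00000022528, chromosome 16, 30064384 to 30067796) was at 32.9 and 29.4 FPKM in control lines 29 and 37 and at 37.7 in both ICSI lines of form 1. In form 2, it was at 39.4 and 27.1 FPKM in control lines 44 and 45 and at 52.6 and 26.8 in ICSI lines 20 and 21. As with Jag1, control line 44 and ICSI line 20 were the highest. The ICSI mean of 38.7 ± 10.6 FPKM and the control mean of 32.2 ± 5.37 (SD, n = 4) gave a difference of 0.23 ± 0.20 (SE, exact permutation p = 0.371). Hey1 (ENSMUSG00000040289, chromosome 3, 8663359 to 8667256) stayed between 3.50 and 4.73 FPKM in all lines (ICSI against control, exact permutation p = 0.657). The form differences of Hes1 (0.03 ± 0.20 SE) and Hey1 (−0.07 ± 0.12 SE) had limma adjusted p-values of 0.918 and 0.690.

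Counted together, none of the 7 tested genes other than Dtx1 differed between ICSI and control lines (limma adjusted p = 1.00 for each, and 0 at an unadjusted p under 0.05). This was also the background, since 0 of the 12000 genes (0.00%) passed and 55 (0.458%) had an unadjusted p under 0.05. With the label form as a covariate, 0 genes passed. With limma-voom on the recovered reads, 0 of 11791 genes passed and 47 had an unadjusted p under 0.05. ICSI and control lines did not overlap for 53 genes (0.442%), none of them among these 7. The exact test over the 70 assignments of 8 lines cannot give a p below 0.0286. Of the 7, 5 were higher and 2 lower in ICSI by mean, with a median difference of 0.04 against −0.01 for all genes tested.

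Between label forms, 2 of the 7 passed, Notch1 upward and Notch2 downward, with a median difference of 0.02 for the 7 and 0.03 for all genes tested. Of the 12000 genes, 1917 (16.0%) passed, 1226 (10.2%) higher and 691 (5.76%) lower in form 2. Lines of the 2 forms did not overlap for 3220 genes (26.8%), against the same 2 of the 7. The share of passing genes that were higher in form 2 was 64.0%, but 50.8% after quantile normalization and 47.1% with limma-voom. The balance of directions among passing genes, a set that changed with the setting, therefore depended on scaling. Notch1 stayed higher and Notch2 lower, both past the threshold, under those settings and after rescaling to TPM. With control line 37, 44 or 45 or ICSI line 11, 17 or 20 left out, neither passed. Without control line 29, Notch2 alone did, and without ICSI line 21 both did, with Jag1. The summed spermatogonial markers were 733 to 881 FPKM in form 1 and 1022 to 1220 in form 2, with 8 of 13 genes past the same threshold. Dazl (257 to 302 and 365 to 420 FPKM) and Ddx4 (173 to 203 and 230 to 274) were the largest terms of these sums. Zbtb16, Nanos2, Nanos3, Lin28a and Tspan8 overlapped between forms, with Nanos3 at 26.8 to 37.7 FPKM in form 1 and 23.4 to 36.9 in form 2. The part of spermatogonial RNA in the form differences was not tested. Of the 9 Sertoli markers, 2 of the 3 tested passed, with Sox9 at 0.832 to 1.26 FPKM in form 1 and 2.06 to 5.46 in form 2 and Wt1 the other way at 2.18 to 3.31 and 0.929 to 1.63, while the sums overlapped. The summed level of 5 endothelial markers, of which 3 had a mean above 1 FPKM and 1 passed, was 2.60 to 5.81 FPKM in form 1 and 5.84 to 9.28 in form 2. For 5 Leydig markers, with Cyp17a1 at 0, it was 1.36 to 1.89 and 0.669 to 1.28 FPKM. The part of these cells was not tested either. A difference of the ICSI effect between the forms was found for 0 of 12000 genes (0.00%, limma adjusted p under 0.05, and 147 at an unadjusted p under 0.05). None of the 7 was among those 147, the lowest unadjusted p being 0.120 in Notch1.

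**Figure D2:**
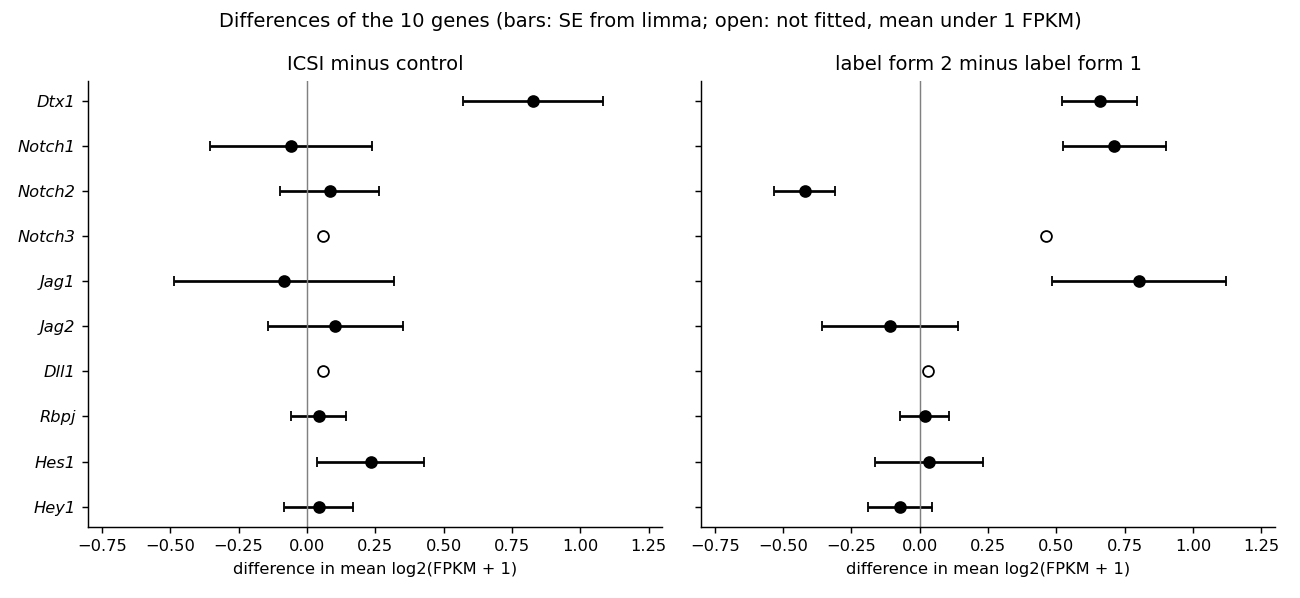
Difference in mean log2(FPKM + 1) (horizontal axes) of the 10 genes between ICSI and control lines (left) and between label forms 2 and 1 (right). Points are differences, bars are SE from limma, and open points are Notch3 and Dll1, which were under the minimum for the fit. Left, Dtx1, chosen by its direction in this comparison, stands at 0.83 and the others at −0.08 to 0.23. Right, Notch1 is at 0.71 and Notch2 at −0.42, while Rbpj and Hes1 lie near 0 and change sign with scaling.

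Of 48 other genes of the pathway, grouped by role, 39 had a mean of at least 1 FPKM. Between ICSI and control, none of the 39 passed (limma, 0 at an unadjusted p under 0.05), with 16 higher and 23 lower by mean and a median difference of −0.02. For none of the 39 were ICSI and control lines without overlap, against 0.442% of all genes. Between label forms, 9 of the 39 passed (23.1%, against 16.0% of all genes), 5 higher and 4 lower in form 2, with a median of 0.08. The forms did not overlap for 13 of the 39, against 26.8% of all genes. The count moved with each line left out, as 0 of the 39 passed without control line 37 or ICSI line 11 or 17, 3 without control line 44 or 45, 4 without control line 29, 5 without ICSI line 20 and 14 without ICSI line 21.

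The proteases that cut Notch at the membrane were higher in form 2. Adam10 rose from 14.8 ± 0.882 to 23.2 ± 3.29 FPKM (SD, n = 4, difference 0.61 ± 0.11 SE, limma adjusted p = 0.0162). Adam17 rose from 17.7 ± 0.669 to 25.2 ± 2.98 FPKM (0.48 ± 0.10 SE, limma adjusted p = 0.0201). Furin, which cuts the receptor during its maturation, did not pass, at 7.69 and 7.60 FPKM. Of the 5 gamma-secretase genes tested, Psenen passed, at 10.8 ± 0.211 and 14.9 ± 1.20 FPKM (0.43 ± 0.09 SE, limma adjusted p = 0.0184).

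Of the 5 enzymes that put sugars on Notch, Pofut1, the O-fucosyltransferase of Notch repeats, was lower in form 2, at 2.39 ± 0.165 against 3.60 ± 0.315 FPKM (−0.44 ± 0.10 SE, limma adjusted p = 0.0272). None of the 5 co-activators tested passed. Among 6 co-repressors, Ctbp2 was higher in form 2, at 5.39 ± 0.929 against 3.44 ± 0.118 FPKM (0.52 ± 0.12 SE, limma adjusted p = 0.0288). Among 8 ubiquitin ligases and endocytic regulators, Numbl, a homologue of the Notch antagonist Numb, was lower, at 3.72 ± 0.411 against 5.32 ± 0.465 FPKM (−0.42 ± 0.11 SE, limma adjusted p = 0.0346).

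Of the other targets, 3 were tested and 2 passed, in opposite directions. Nrarp, a Notch target whose product restrains the pathway, was at 9.96 ± 1.58 FPKM in form 2 and 5.94 ± 1.21 in form 1 (0.67 ± 0.16 SE, limma adjusted p = 0.0312). Hes5, a repressor of the Hes family, was at 2.64 ± 0.979 FPKM in form 2 and 4.73 ± 0.649 in form 1 (−0.69 ± 0.19 SE, limma adjusted p = 0.0425), with overlapping lines. Nrarp differed in the direction of Notch1 and Hes5 in that of Notch2. Since these receptors went opposite ways, every gene shares a direction with Notch1 or Notch2, and no link was tested. The remaining receptor and ligands, Notch4, Dll3 and Dll4, were all under 1 FPKM, with 9 to 92 reads.

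**Figure D3:**
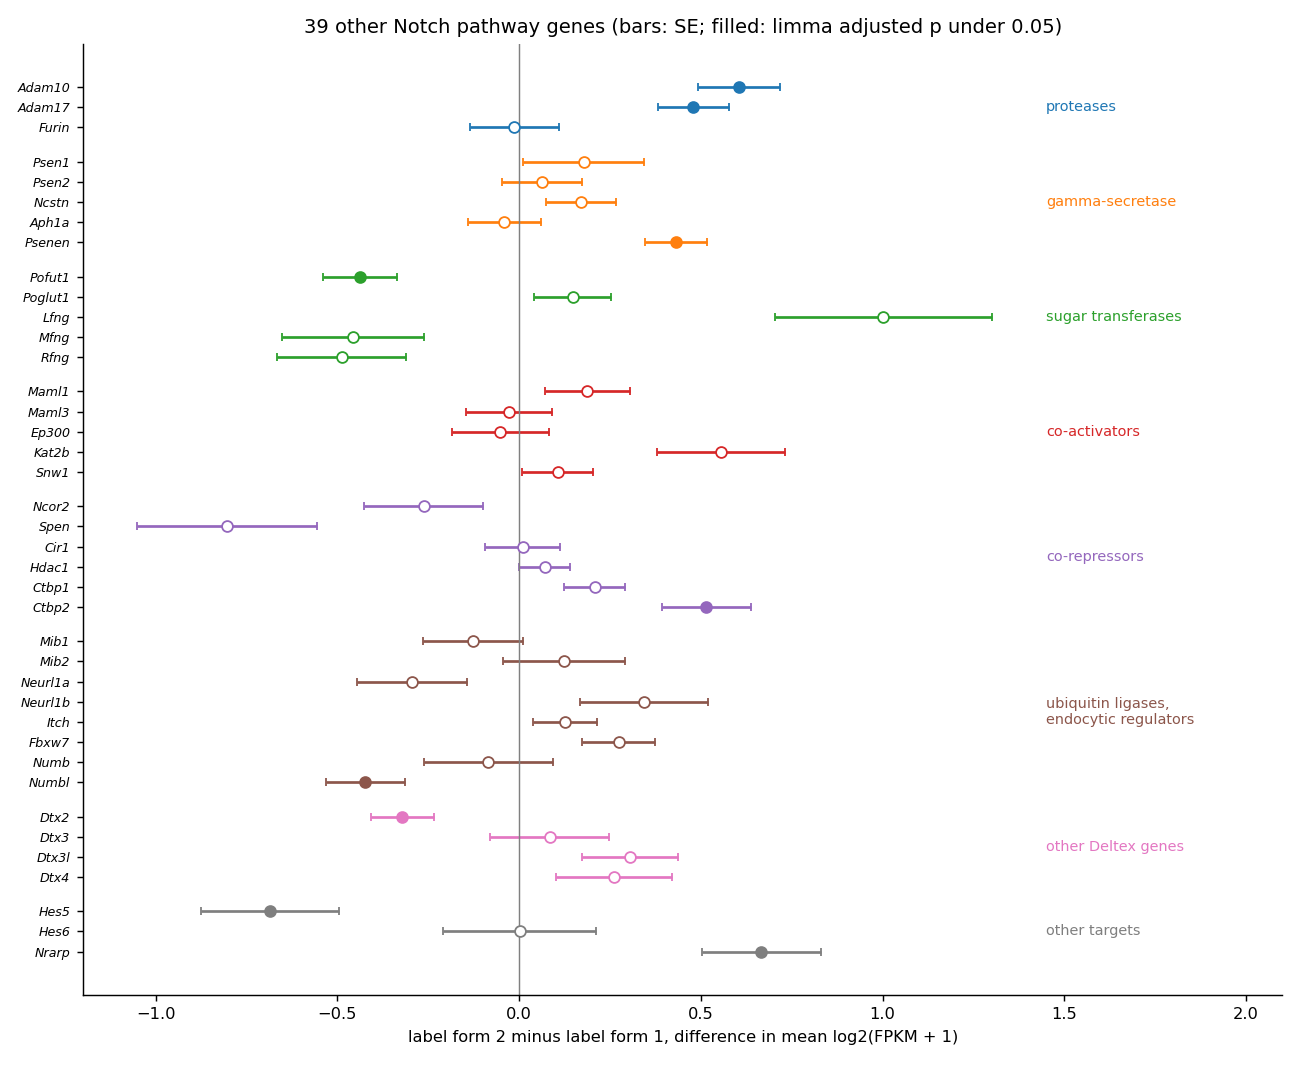
Difference in mean log2(FPKM + 1) between label forms 2 and 1 (horizontal axis) for the 39 tested genes of the wider pathway, one per line and coloured by role. Points are differences, bars are SE from limma, and filled points had an adjusted p under 0.05. The 9 filled points lie on both sides of 0, from Hes5 at −0.69 to Nrarp at 0.67.

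The other Deltex genes did not share the ordering of Dtx1. Dtx2, the most abundant with a mean of 20.7 FPKM, was 20.7 FPKM in both groups (difference 0.01 ± 0.14 SE, exact permutation p = 1.00). Dtx3l, whose product partners with PARP9, was at 7.89 ± 2.13 FPKM in control and 8.87 ± 1.07 in ICSI lines (0.17 ± 0.17 SE, exact permutation p = 0.371). Dtx3 was at 4.44 ± 0.760 and 4.05 ± 1.03 FPKM (exact permutation p = 0.514). Dtx4, the least abundant, was at 1.05 ± 0.519 FPKM in control and 1.47 ± 0.240 in ICSI lines (0.29 ± 0.18 SE, exact permutation p = 0.171). In form 1 its ICSI lines, at 1.40 and 1.44 FPKM, were above the control lines at 0.802 and 0.614, and in form 2 the groups overlapped. Dtx3l had the same pattern, with 8.98 and 7.73 FPKM in the ICSI lines and 6.20 and 6.65 in the control lines of form 1. The share of all genes with this ordering in form 1 was not counted, so nothing is drawn from it. The p-values of these 4 genes are not adjusted. Between forms, only Dtx2 of the 4 passed, at 18.3 ± 0.320 FPKM in form 2 and 23.1 ± 2.16 in form 1 (−0.32 ± 0.09 SE, limma adjusted p = 0.0410).

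**Figure D4:**
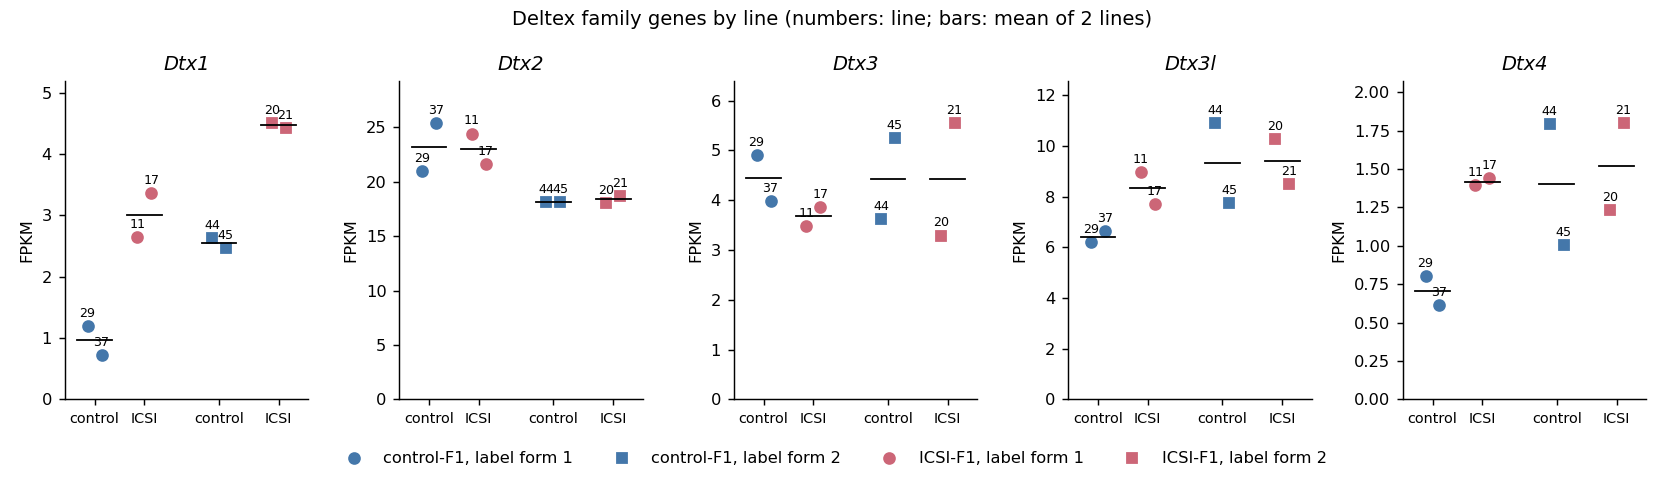
Level of the 5 Deltex genes in FPKM (vertical axes, each from 0) in the 8 lines, control and ICSI within label form 1 (circles) and form 2 (squares), with line numbers and bars for means of 2 lines. Dtx1 is higher in ICSI lines in both forms, whereas Dtx2, Dtx3, Dtx3l and Dtx4 have overlapping groups in at least 1 form.

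The genes most like Dtx1 over the 8 lines were ranked by Pearson's r of log2(FPKM + 1) among the other 11999 genes tested. The 5 highest were Man1c1, a Golgi mannosidase gene (r = 0.966), Pam16, of the mitochondrial import motor (r = 0.950), the kinase gene Dyrk1a (r = 0.941), Wscd1 (r = 0.938) and Hmox2, which encodes the constitutive heme oxygenase (r = 0.937). Their spans were narrower than the 6.18-fold span of Dtx1, such as 3.43 to 5.50 FPKM for Man1c1 and 61.2 to 86.4 for Hmox2. Of the other members, Notch3, which was under the minimum and not ranked, had r = 0.628 with Dtx1, Notch1 0.478, Jag1 0.434, Rbpj 0.414, Hes1 0.382, Dll1 (not ranked) 0.122, Hey1 0.049, Jag2 −0.022 and Notch2 −0.396. These are descriptions over 8 libraries that share the label forms and their depths, with Dtx1 the gene chosen.

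**Figure D5:**
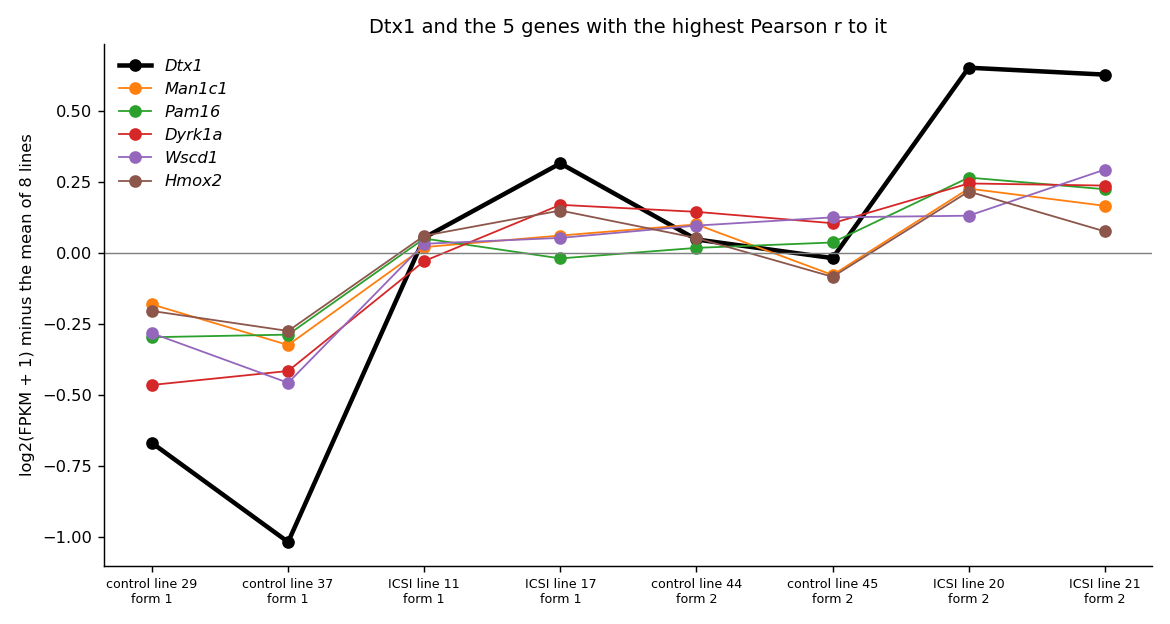
Level of Dtx1 (black) and of the 5 genes with the highest Pearson's r to it, as log2(FPKM + 1) minus the mean of the 8 lines (vertical axis), in each line (horizontal axis, form 1 left, form 2 right). All 6 genes are lowest in control lines 29 and 37, and Dtx1 has the widest span.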

How the data were processed

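Polyadenylated RNA of the 8 lines was sequenced by the authors. The deposited values are FPKM per gene, made by the authors from single-end reads of 76 bases trimmed with cutadapt, aligned to mm10 with STAR and counted with HTSeq; per the labels, versions were STAR 2.7.9a, cutadapt 3.4 and HTSeq 0.13.5 for form 1 and 2.6.0c, 1.16 and 0.11.2 for form 2. The study's methods name only the first set and TPM as the unit, and labels and methods name different library kits. Deposited columns of the authors' log2 fold changes and adjusted p-values were not used.

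Here limma 3.58.1 (R 4.3.3; limma-trend) was fitted to log2(FPKM + 1) of the 12000 genes that averaged 1 FPKM or more, and p-values were adjusted by Benjamini-Hochberg, with 0.05 as the threshold. ICSI against control had no covariate, and label forms had the group as a covariate. Fold changes on this scale understate changes of low genes. The pseudocount, minimum, covariate, scaling, a voom fit to recovered reads and each line left out were the alternatives. Reads were recovered with GENCODE M21 exon lengths. The code of the fits was also run on simulated noise, with changes placed only in genes more abundant than most of the 10 members. No result here rests on that run. The genes named are the 10 members, the other Deltex genes, pathway genes past the threshold (at most 10 by smallest p) and the 5 genes with the highest r to Dtx1. Furin, Notch4, Dll3, Dll4, Spen and Rfng fall outside this rule and were named after their values were seen. The members and lists were chosen with earlier results of these data known. The design had planned a test of Dtx1 between forms, which is given here as a description.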

Additional observations from a re-analysis of the deposited data

Results flagged for a closer look

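Among 54 groups of 4 values, for 27 named genes, 2 values stood apart from the other 3 of their group by Dixon's criterion, which chance alone gives in about 1 of 20 groups. Jag1 in ICSI line 20 was at 17.0 FPKM, against 5.65 to 6.44 in the other ICSI lines, a gap of 0.930 of the group's range. Rbpj in ICSI line 11 was at 4.46 FPKM, against 4.17 to 4.19 in the other ICSI lines, a gap of 0.923 of a range that is itself narrow.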

How the results depend on the processing

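The ICSI difference of Dtx1 ran from 0.63 to 1.19 under 17 alternatives, with 0.63 to 0.98 when a line was left out. Every ICSI line was above every control line, so leaving out a line could not turn its sign. The alternatives include the within-form values that chose the gene, and no support is drawn from this range. The form difference of Dtx1 stayed between 0.55 and 0.96 under 15, with the 0.96 from the pseudocount of 0.1, again another scale. Without the minimum level, 23964 genes were tested, 1 of them passed between ICSI and control (0 with the minimum), and between forms 1255 passed, with 0 of the 7 genes other than Dtx1 (2 with the minimum) and 3 of the wider pathway (9 with it). Notch1 and Notch2 then had limma adjusted p-values of 0.0782 and 0.0639.

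Leaving out lines, with fewer lines in the fit, moved the form counts most: 210 to 2691 genes (1917 with all lines), 0 to 3 of the 7 genes and 0 to 14 of the wider pathway. All-gene counts were 1044 without control line 29, 287 without 37, 675 without 44 and 1061 without 45, and 210 without ICSI line 11, 429 without 17, 1209 without 20 and 2691 without 21. The wider pathway gave 4, 0, 3, 3, 0, 0, 5 and 14 in that order. Over these fits the limma adjusted p ran from 0.0141 to 0.0928 for Notch1 and from 0.0259 to 0.114 for Notch2. ICSI against control gave 0 genes in each (0 with all lines).

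Small differences changed sign. Between forms, Rbpj was at −0.031 after rescaling to TPM and −0.055 with voom, and Hes1 at −0.021, −0.085 after quantile normalization and −0.053 with voom. With a line left out, form differences ranged from −0.014 to 0.043 for Rbpj, −0.15 to 0.23 for Hes1 and −0.35 to 0.16 for Jag2. ICSI differences then ranged from −0.29 to 0.19 for Notch1, −0.0090 to 0.23 for Notch2, −0.43 to 0.22 for Jag1, −0.074 to 0.35 for Jag2 and −0.013 to 0.098 for Hey1. Their causes were not tested.

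No paired analysis was possible because the lines of the groups share no number. Depth limits Dll1 and Notch3, with as few as 18 and 76 reads in a line. A sequencing run, a date or a change of tools cannot be told apart from the label form, and 2 lines of each group in a form leave each within-form difference without a useful test.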

Other observations

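Within label form 2, control line 44 and ICSI line 20 were alike in several pathway genes and unlike control line 45 and ICSI line 21, a split chosen after the values were seen and crossing the ICSI groups. The first pair was higher in Jag1 (16.6 and 17.0 FPKM against 8.55 and 5.87), Notch1 (15.2 and 11.6 against 10.5 and 8.0) and Hes1 (39.4 and 52.6 against 27.1 and 26.8). It was lower in the ligands Jag2 (5.58 and 4.12 FPKM against 8.17 and 11.3) and Dll1 (0.130 and 0.138 against 0.252 and 0.536). Chosen likewise after their values were seen, Spen and Rfng also followed the split. The same pair was lower in Spen, a co-repressor of RBPJ, at 6.89 and 5.64 FPKM against 11.2 and 13.0, and in Rfng, a Fringe sugar transferase, at 2.75 and 2.89 against 4.67 and 5.02. Rbpj was at 4.27 and 4.18 FPKM in the first pair and at 4.17 and 4.19 in the second. The pairs also overlapped in Dtx1 (2.62 and 4.52 FPKM against 2.46 and 4.42) and Hey1 (4.31 and 3.64 against 3.50 and 4.65). They overlapped in Notch3 too (1.40 and 1.25 against 0.793 and 1.31), and Notch2 was only just apart (9.86 and 8.59 against 9.89 and 11.5). The share of all genes that follow this split was not counted, so it is not a result about the pathway. The fibroblast marker sums were 610 and 397 FPKM in the first pair and 175 and 263 in the second, and their part in these values was not tested.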
